A study of Monodelphis domestica and Mus musculus and Sus scrofa with 73 samples.

Results

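At embryonic stage 14, forelimb and hind limb were compared in a short-tailed fruit bat, Carollia perspicillata. The 6 libraries were chosen by the limb and stage in their labels, out of 73 samples in the series and 16 bat libraries with a table analysed here. Of the 27026 genes in each table, 14829 were tested, those whose rounded count reached 10 in 3 or more of these 6 libraries. The series sequenced limb RNA of mouse, opossum, bat and pig embryos, and the bat libraries cover both limbs at stages 13, 14 and 15.

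The forelimb group held 3 libraries and the hind limb group held 3. Each was made from total RNA of limbs. The paper gives field collections in Trinidad as the source of its bat embryos, and it describes bat forelimbs only. A strain, a genotype or a treatment is named for neither group in the sources used here. Forelimb replicates 1 and 2 carry the label early stage, which the protocol gives as stage 14 for the bat. Forelimb replicate 3 and the 3 hind limb libraries carry the stage number itself. How the libraries were divided over preparation and sequencing runs is not given in the sources used here, and the wording of the labels runs partly with limb, so a difference between the 2 sets of libraries and a limb difference cannot be fully told apart. The labels do not say how many embryos went into a library or whether replicates came from separate embryos, so the p-values measure the spread between these libraries, which may be technical. In RNA from whole limbs, fewer cells of a type and less RNA per cell cannot be told apart.

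Forelimb and hind limb buds grow out under much the same signals, with Fgf genes of the apical ectodermal ridge, Shh of the zone of polarizing activity and Bmp genes acting in both. A small set of transcription factors differs between them: in mouse, Tbx5 is made in the forelimb, and Tbx4 and Pitx1 are made in the hind limb. In bats the forelimb goes on to form the wing, with long digits joined by membrane, while the hind limb keeps short, free digits. The tables here identify genes only by the component numbers of a de novo transcript assembly, none of which (0) could be paired with a gene name, so these genes were not looked up and the limb labels were not checked against them. Genes are therefore described by assembled length in bases, by number of assembled isoforms and by level, and the 4 genes that lead the comparison are given by identifier.

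The sum of expected counts per library, the depth, ran from 17910029 in hind limb replicate 3 to 61814821 in hind limb replicate 2. A count of 3 corresponded to between 0.0485 and 0.168 counts in 1000000 (CPM), a limit that covers counting error only. Between 17799 and 19803 genes had at least 1 count. Of the genes shorter than 300 bases, 6.94% were detected in forelimb replicate 2 and 19.9% in hind limb replicate 3, which had the lowest depth.

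The libraries did not sort by limb over all tested genes. Over log2(CPM + 1) values, the 6 pairs of libraries from the same limb had a mean Pearson r of 0.985 and the 9 pairs across limbs had a mean of 0.983. These are correlations across genes, which are not independent replicates. The mean within limbs exceeded the mean between limbs by 0.00205, with p = 0.4 in a two-sided exact permutation test over the divisions of the 6 libraries, where the smallest possible p was 0.1. The pair most alike was a forelimb with a hind limb library, both replicate 2, with r = 0.9931 and 127 genes differing over 2-fold. Pairs within a limb differed over 2-fold in 176 to 568 genes, and pairs across limbs in 127 to 759. None of the 5 principal components separated the limbs, and the first held 35.9% of the variance. Libraries of the hind limb also spread more, with a median SD of 0.226 against 0.161 in the forelimb on the log2(CPM + 1) scale, and 64.6% of genes had the larger SD in the hind limb.

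**Figure D1:**
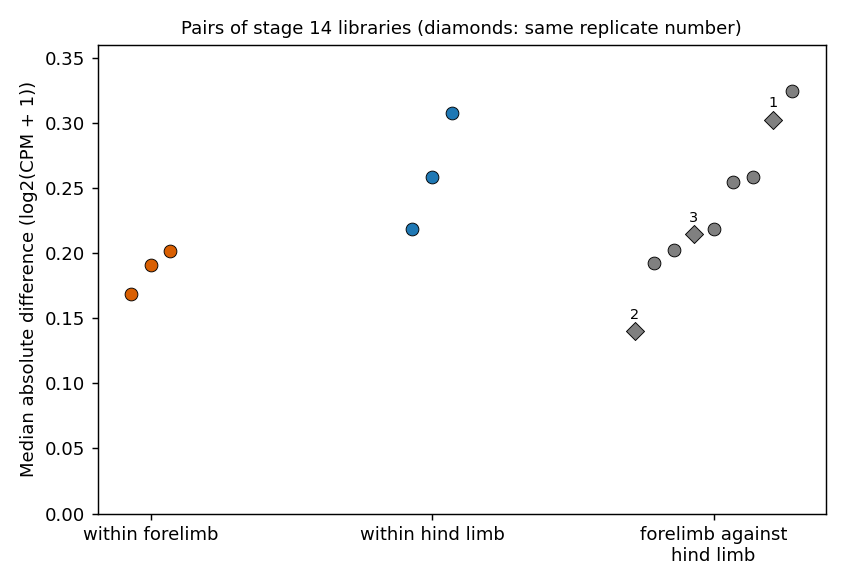
Each point is a pair of stage 14 libraries, placed by the median absolute difference over genes in log2(CPM + 1), with pairs within the forelimb, within the hind limb and across limbs in separate columns and same-numbered pairs as diamonds. The lowest point, at 0.140, is forelimb replicate 2 with hind limb replicate 2, and the range across limbs, 0.140 to 0.324, takes in the range within limbs, 0.168 to 0.307.

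Against this background a small number of genes differed by limb. By edgeR's quasi-likelihood test, 23 genes passed a Benjamini-Hochberg adjusted p of 0.05, which is 0.155% of the 14829 tested. Higher in the forelimb were 17 genes (0.115% of those tested), and higher in the hind limb were 6 (0.0405%). The forelimb genes had the smaller differences: leaving aside 1 gene with few counts, the 16 others differed by 1.96-fold to 12.8-fold, with a median of 2.96-fold. The 6 hind limb genes differed by 8.45-fold to 88.9-fold, with a median of 13.7-fold. In all 23 genes every library of the higher limb lay above every library of the lower limb. Such a separation was found in 8.27% of all tested genes with the forelimb higher and in 6.13% with the hind limb higher, so it is much more common than a call.

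The number of calls, and the excess of forelimb calls, depended on single libraries. Without forelimb replicate 1, 10 genes passed (5 higher in the forelimb and 5 in the hind limb). Without forelimb replicate 2 there were 8 (4 and 4), and without forelimb replicate 3 there were 14 (9 and 5). Leaving out hind limb replicates 1, 2 and 3 gave 9 (5 and 4), 16 (7 and 9) and 43 (34 and 9). Each of these fits also had fewer libraries in 1 limb, and how far this changed the counts was not tested. None of the 23 genes changed direction in any of them. Without both libraries numbered 2, 3 genes passed, of which 0 were higher in the forelimb and 3 in the hind limb. With only the libraries labelled by stage number, forelimb replicate 3 against the 3 hind limb libraries, 4 genes passed (1 and 3), where the lone forelimb library is assumed to vary like the hind limb ones. All 4 were among the 23. DESeq2 gave 176 calls, 138 of them higher in the forelimb, and 22 of the 23 genes were among them.

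**Figure D2:**
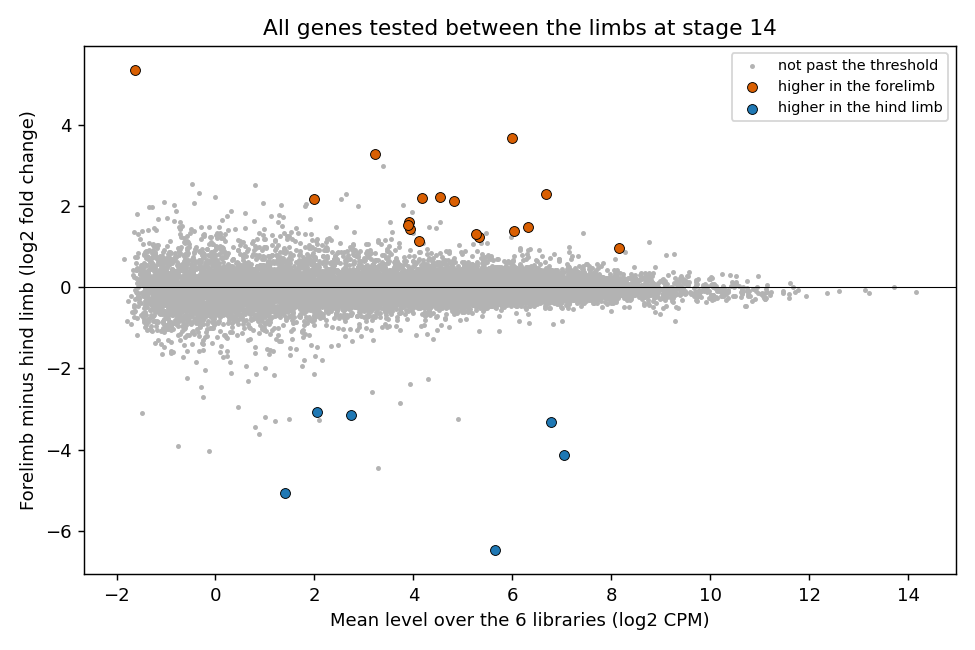
Each point is 1 of the 14829 genes tested, with its mean level in log2 CPM on the x axis and the fitted log2 fold change, forelimb minus hind limb, on the y axis. The 17 genes higher in the forelimb are orange and the 6 higher in the hind limb are blue, and most other genes lie near 0, with a median absolute log2 fold change of 0.18.

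The strongest evidence for a limb difference was in a pair of genes higher in the hind limb. The gene comp120244_c1, assembled at a mean length of 4400.7 bases with 36 isoforms, stood at 14.0, 15.4 and 13.4 CPM in the forelimb libraries. In the hind limb libraries it stood at 206, 241 and 305 CPM. The lowest hind limb library lay 13.4-fold above the highest forelimb library. Its means were 14.3 ± 1.02 CPM in the forelimb and 251 ± 50.2 CPM in the hind limb (SD, n = 3 each), and the log2 fold change was -4.14 with an SE of 0.179 (edgeR adjusted p = 9.11e-06). With so many isoforms in 1 component, reads of close gene copies could be counted together.

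The gene comp122443_c0, of 2766.7 bases and 2 isoforms, was measured at 21.3, 18.2 and 20.8 CPM in the forelimb. Its hind limb libraries gave 225, 175 and 199 CPM. The forelimb values were thus not low in absolute terms, but the groups stood 8.20-fold apart at their nearest libraries. The means were 20.1 ± 1.66 and 199.7 ± 25.3 CPM (SD, n = 3 each), a log2 fold change of -3.31 with an SE of 0.150 (edgeR adjusted p = 9.11e-06). Both genes passed under each of the 18 alternative settings or sets of libraries tried, and no other gene did.

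The other 4 hind limb genes averaged under 2 CPM in the forelimb. A gene of 981 bases with 1 isoform had the widest difference of all the genes that passed, at 0.246, 1.17 and 1.86 CPM in the forelimb against 126, 56.8 and 115 CPM in the hind limb. The groups were 30.6-fold apart at their nearest libraries, and the log2 fold change was -6.47 with an SE of 0.569 (edgeR adjusted p = 0.00349). Per length it was the most abundant of the 23 genes in its higher limb, at 152 ± 57.9 FPKM (fragments scaled by gene length and depth) in the hind limb against 1.72 ± 1.31 FPKM in the forelimb (SD, n = 3 each).

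A gene of 1742 bases reached 3.72, 3.81 and 7.78 CPM in the hind limb. In the forelimb it was at 0.140 and 0.265 CPM in replicates 1 and 3 and had 0 counts in replicate 2, where a count of 0 allows up to 0.137 CPM. Its log2 fold change was -5.05 with an SE of 0.655 (edgeR adjusted p = 0.0242), and its fitted size rests on few forelimb reads. A gene of 1959.1 bases stood at 1.02 to 1.68 CPM in the forelimb and at 9.41 to 14.6 CPM in the hind limb (log2 fold change -3.15, SE 0.289). A gene of 1247 bases stood at 0.515 to 1.30 and 4.57 to 8.86 CPM (log2 fold change -3.08, SE 0.401). In these 2 genes the groups were 5.60-fold and 3.52-fold apart at the nearest libraries.

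Among the genes higher in the forelimb, comp125549_c0 had the smallest p. It is assembled as 1 isoform of 5757 bases and was measured at 43.0, 38.2 and 33.6 CPM in the forelimb. Its hind limb values were 9.51, 8.34 and 6.58 CPM. The groups did not overlap and were 3.54-fold apart at their nearest libraries. Means of 38.3 ± 4.68 and 8.14 ± 1.47 CPM (SD, n = 3 each) gave a log2 fold change of 2.23 with an SE of 0.194 (edgeR adjusted p = 0.00263).

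The gene comp108080_c0, 1 isoform of 1903 bases, followed with 27.1, 29.8 and 32.0 CPM in the forelimb. The hind limb libraries held 7.03, 5.24 and 7.34 CPM. All forelimb libraries were again above all hind limb libraries, by 3.69-fold at the nearest. The means were 29.6 ± 2.43 and 6.54 ± 1.13 CPM (SD, n = 3 each), and the log2 fold change was 2.19 with an SE of 0.195 (edgeR adjusted p = 0.00263). Without both libraries numbered 2, the adjusted p of this gene and of comp125549_c0 was 0.0725, and with only the libraries labelled by stage number it was 0.0624 here and 0.130 in comp125549_c0 (edgeR).

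The widest forelimb difference, leaving aside the gene with few counts, was in a gene of 3459.6 bases and 2 isoforms. It stood at 139, 92.8 and 119.6 CPM in the forelimb. The hind limb libraries held 14.7, 8.86 and 3.75 CPM. Every forelimb library was at least 6.33-fold above the highest hind limb library, while the hind limb values themselves varied widely. The log2 fold change was 3.67 with an SE of 0.416 (edgeR adjusted p = 0.0188). A gene of 2621 bases was next, at 14.2, 20.3 and 16.3 CPM against 1.43, 1.33 and 2.61 CPM (log2 fold change 3.28, SE 0.306, edgeR adjusted p = 0.00265). Of the 18 alternatives, the gene of 3459.6 bases lost its call in 7 and the gene of 2621 bases in 2.

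Per length, the most abundant forelimb gene was one of 2326 bases, at 83.6 ± 32.3 FPKM in the forelimb and 16.6 ± 5.02 FPKM in the hind limb (SD, n = 3 each). Its CPM in the forelimb libraries was 238, 163 and 107.9, and in the hind limb libraries 45.8, 24.3 and 33.5. The forelimb values thus spread over more than 2-fold between libraries, yet the lowest was 2.35-fold above the highest hind limb value. Its log2 fold change was 2.30 with an SE of 0.319 (edgeR adjusted p = 0.0414), and the call was lost in 7 of the 18 alternatives.

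The smallest difference among the genes that passed was in a gene of 6491 bases, at 378, 341 and 408 CPM in the forelimb and 205, 176 and 194 CPM in the hind limb. The groups were 1.67-fold apart at the nearest libraries. The log2 fold change was 0.97 with an SE of 0.128 (edgeR adjusted p = 0.0242), and this call too was lost in 7 of the 18.

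The gene with few counts had 477 bases. It held 45 counts over the 3 forelimb libraries and 1 count over the 3 hind limb libraries. After scaling to depth this is a ratio of 56.4, with an exact 95% interval from 9.62 to 2277 that covers counting error only. It lost its call in 10 of the 18 alternatives, among them DESeq2, which gave it no adjusted p, and was not tested in 3. Among the forelimb genes as a whole, calls were lost in 2 to 10 of the 18 alternatives, and among the hind limb genes in 0 to 6. The genes of 477, 1367 and 2291 bases lost theirs with each of the 6 libraries left out in turn.

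The remaining 10 forelimb genes lay between these in size, with 1.13 to 2.17 in log2 fold change. Among them, a gene of 4780.5 bases stood at 108.1, 86.5 and 89.6 CPM in the forelimb and 34.2, 33.8 and 40.1 CPM in the hind limb (log2 fold change 1.39, SE 0.146, edgeR adjusted p = 0.0055). A gene of 2622.6 bases stood at 132, 115 and 102 CPM against 42.4, 34.0 and 49.6 CPM (log2 fold change 1.47, SE 0.170, edgeR adjusted p = 0.0114). In both, the forelimb libraries were over 2-fold above the hind limb libraries at the nearest pair. At the lower end of expression, a gene of 2291 bases stood at 5.07 to 8.59 CPM in the forelimb and 1.18 to 1.88 CPM in the hind limb (log2 fold change 2.17, SE 0.324), and its call was lost in 10 of the 18 alternatives.

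**Figure D3:**
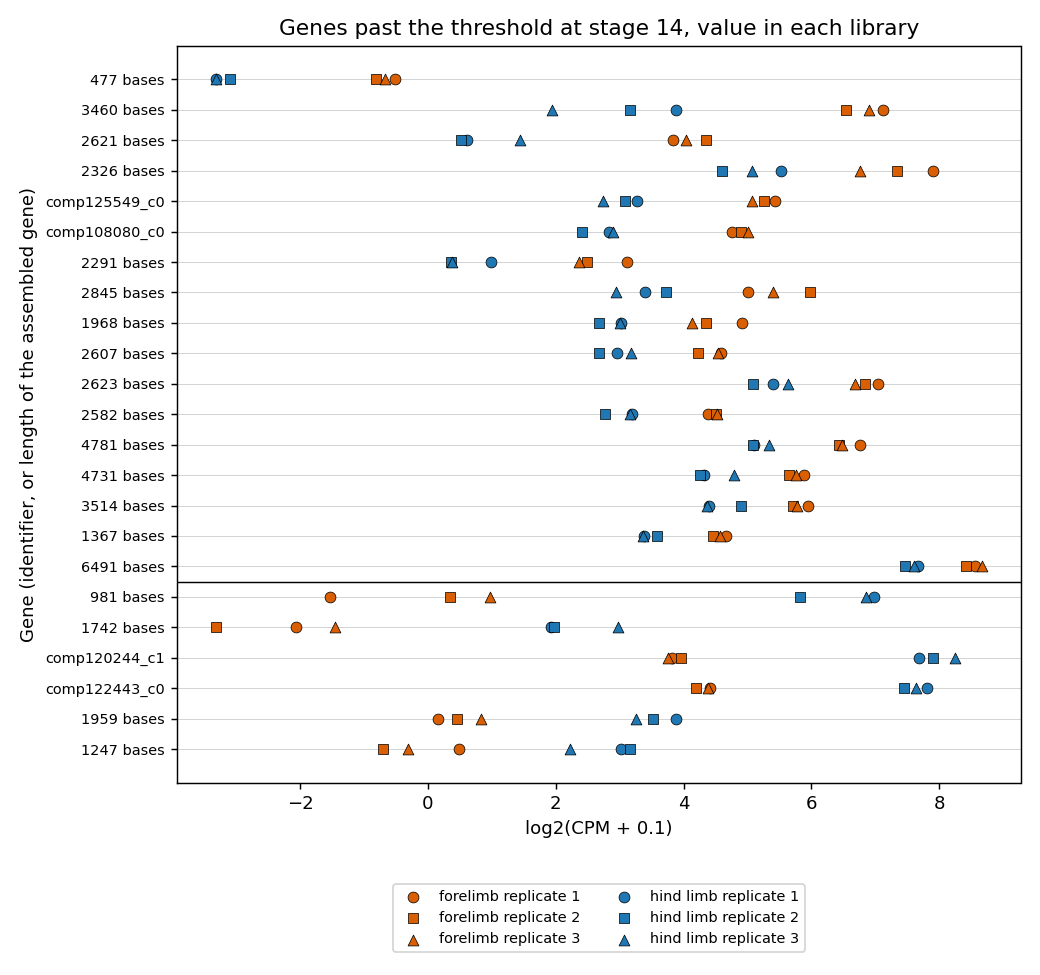
The 23 genes that passed are listed down the y axis by identifier or length, forelimb-higher genes above the line and hind limb-higher genes below it, and each symbol is 1 library at its log2(CPM + 0.1). Orange and blue symbols do not overlap in any row, and the widest gap is in the row of 981 bases.

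The third forelimb library is labelled by stage number rather than as early stage. Over all tested genes, its Pearson r was 0.989 with forelimb replicate 1 and 0.986 with forelimb replicate 2, beside 0.990 between those 2, and it differed over 2-fold from them in 284 and 423 genes, beside 176. Its r with the hind limb libraries was 0.985, 0.985 and 0.984. The 17 forelimb genes were more likely to pass where the forelimb libraries were alike. Among them, forelimb replicate 3 was the lowest of the 3 forelimb libraries in 5 and the highest in 3. Replicates 1 and 2 were the highest in 12 and 2 genes and the lowest in 4 and 8. The median log2 difference of replicate 3 from the mean of replicates 1 and 2 was -0.060.

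Most genes that passed were assemblies of 1000 bases or more, as were most genes tested. At least 1000 bases were assembled for 16 of the 17 forelimb genes and 5 of the 6 hind limb genes. By length, 0 of 111 tested genes under 300 bases passed, 2 of 2364 from 300 to under 1000 bases (0.0846%) and 21 of 12354 longer genes (0.170%). By mean level, 1 of 1634 genes under 1 CPM passed, 5 of 4083 from 1 to 10 CPM, 13 of 6889 from 10 to 100 CPM and 4 of 2223 at 100 CPM or more. Precision ran with level, since the median half-width of the 95% interval of the log2 fold change was 1.08 under 1 CPM and 0.32 at 100 CPM or more. No other gene in the table (0) shared an assembly component number with any of the 23.

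The deposited tables also give each gene a length weighted by the estimated abundance of its isoforms, which moves when isoforms are used in other proportions. These lengths are described without a test, and were looked at after the limb differences were known. Among 8547 tested genes with several isoforms and at least 10 counts in every library, the length was greater in all forelimb libraries for 356 (4.17%) and in all hind limb libraries for 468 (5.48%). Of the 10 genes that passed and had several isoforms, 2 were longer in all forelimb libraries and 1 in all hind limb libraries.

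One of these was comp120244_c1. Its weighted length was 4875, 5024 and 4738 bases in the forelimb libraries, where its level was low, and 4031, 3796 and 3940 bases in the hind limb libraries, where its level was high. The groups did not overlap, and the forelimb mean was 1.24 times the hind limb mean. In comp122443_c0 the shift was small, at 0.987 times.

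The other was a gene of 15 isoforms with a mean length of 2607.0 bases. It was assigned 3104, 3157 and 3013 bases in the forelimb and 1978, 2879.7 and 1509.7 bases in the hind limb, a mean ratio of 1.46. It was also the gene in which the choice of unit mattered. In CPM it stood at 23.9, 18.6 and 23.0 in the forelimb and 7.67, 6.29 and 8.98 in the hind limb, with a log2 fold change of 1.52, an SE of 0.206 and an edgeR adjusted p of 0.0246. In FPKM the forelimb libraries held 8.51, 6.24 and 8.68 and the hind limb libraries 4.34, 2.33 and 7.52, so the groups overlapped. In the other 22 genes the groups stood apart in FPKM too.

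For most genes these libraries set a bound on the limb difference. The 95% interval of the log2 fold change lay within 1 of 0 (within 2-fold) for 10894 of the 14829 genes, or 73.5%. It lay wholly beyond 2-fold for 39 genes, of which 19 passed the test. At an unadjusted p under 0.05 there were 1081 genes, 691 higher in the forelimb and 390 higher in the hind limb, and at an adjusted p under 0.1 there were 38. The last gene to pass had an adjusted p of 0.0414 and the next gene had 0.0522. The median log2 fold change over all tested genes was -0.036. In 0 genes did all libraries of one limb hold at least 10 counts and all libraries of the other hold 0, so no tested gene was read at that level in one limb and missing from the other.

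The same limb difference was then read in separate libraries of the stages before and after. At stage 13 (3 libraries per limb), 11 of 14729 genes passed (0.0747%), and at stage 15 (2 per limb), 122 of 14826 passed (0.823%). The stage 15 forelimb libraries carry the label late stage, and the stage 15 hind limb libraries carry the stage number. At stage 15, a difference between these 2 sets of libraries and a limb difference therefore cannot be told apart. The hind limb genes of stage 14 held their direction at both stages. All 6 were higher in the hind limb and without overlap at stage 13, where 5.62% of all genes did so, and again at stage 15, where 17.6% did. They passed in 4 of 6 cases at each stage. The median log2 fold change of the 6 was -6.09 at stage 13 and -2.64 at stage 15, beside -3.72 at stage 14 and all-gene medians of -0.0028 and 0.0079 at stages 13 and 15.

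The forelimb genes were less uniform. At stage 13, 16 of the 17 could be tested, 11 were higher in the forelimb and 2 passed. At stage 15, 16 could be tested, 13 were higher in the forelimb and 4 passed. Without overlap in the forelimb direction were 8 at stage 13, against 5.36% of all genes, and 12 at stage 15, against 19.2%. The median log2 fold change of those tested was 0.77 at stage 13, with a range of -1.68 to 4.39, and 0.63 at stage 15, with a range of -0.51 to 3.73.

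In all, 6 of the 23 genes passed at stage 13 as well, which is 54.5% of the stage 13 list and 26.1% of the stage 14 list. At stage 15, 8 passed, which is 6.56% of the stage 15 list and 34.8% of the stage 14 list. A set of 4 genes passed at all 3 stages. The length of the stage 13 list changed most with forelimb replicate 3 of that stage. Without it, 1190 of 15182 genes passed, including all 11, and 10 of the 22 stage 14 genes that could then be tested passed in the same direction. Without any other stage 13 library, 5 to 7 genes passed.

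**Figure D4:**
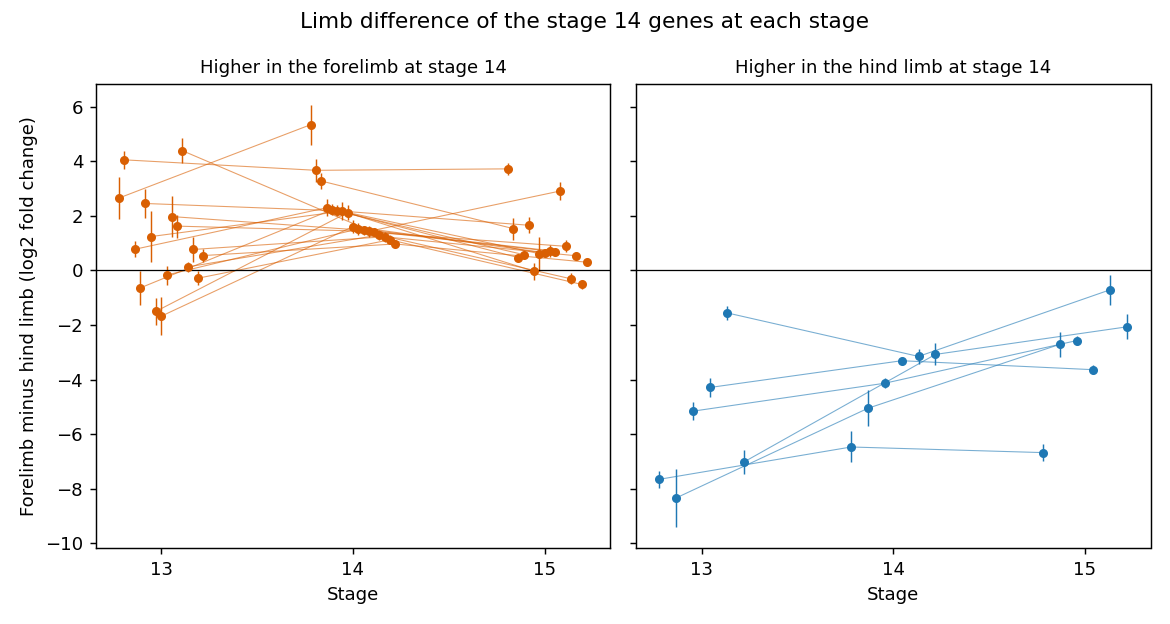
Each point is the fitted log2 fold change, forelimb minus hind limb, of 1 of the 23 stage 14 genes at stages 13, 14 and 15, with bars of 1 SE and lines joining a gene. The 6 hind limb genes (right) stay below 0 at each stage, and the forelimb genes (left) lie on both sides of 0 at stages 13 and 15.

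Whether the limb difference itself changed between stages depended on the fit. By edgeR's interaction term, 0 of 15676 genes passed between stages 14 and 13, with 830 at an unadjusted p under 0.05 and 88 passing by DESeq2. Between stages 14 and 15, 0 of 15783 passed, with 771 at an unadjusted p under 0.05 and 58 passing by DESeq2. With the replicate number as a block these counts were 5 and 2, and without hind limb replicate 3 they were 1 and 26. Among the 23 genes, the smallest adjusted p was 0.0811 between stages 14 and 13, in the gene of 4780.5 bases, and 0.106 between stages 14 and 15, in a gene of 1367 bases. A fall or a rise of a difference across stages is therefore given below as values only.

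Over stages, with CPM scaled over all 16 bat libraries, comp120244_c1 stood at 2.14, 5.56 and 3.39 CPM in the stage 13 forelimb and at 143, 121 and 132 CPM in the stage 13 hind limb (log2 fold change -5.16, edgeR adjusted p = 0.000963). At stage 15 the forelimb libraries held 21.8 and 21.9 CPM and the hind limb libraries 143 and 121 CPM (log2 fold change -2.57, edgeR adjusted p = 1.34e-06). The hind limb level at stage 14 was above those at both other stages in every library. For comp122443_c0 the stage 13 forelimb held 4.60, 8.56 and 4.49 CPM and the hind limb 73.9, 145 and 127 CPM (log2 fold change -4.29, edgeR adjusted p = 0.00654). At stage 15 it held 14.3 and 14.7 CPM in the forelimb and 163 and 202 CPM in the hind limb (log2 fold change -3.64, edgeR adjusted p = 1.24e-07). Neither gene overlapped between limbs at any stage.

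For comp125549_c0 the picture differed at the earlier stage. The stage 13 forelimb held 11.3, 14.4 and 7.81 CPM, and the hind limb held 36.6, 6.49 and 9.09 CPM, so the limbs overlapped and hind limb replicate 1 was the highest of all (log2 fold change -0.64, edgeR adjusted p = 0.861). At stage 15 both limbs were higher, at 98.9 and 120.7 CPM in the forelimb and 72.6 and 76.1 CPM in the hind limb, and the log2 fold change of 0.58 did not pass (edgeR adjusted p = 0.112). For comp108080_c0 the forelimb held 14.5, 8.49 and 5.26 CPM and the hind limb 3.04, 1.12 and 1.01 CPM at stage 13, a log2 fold change of 2.46 that did not pass (edgeR adjusted p = 0.318). At stage 15 it held 27.0 and 45.1 CPM against 13.8 and 9.08 CPM and passed (log2 fold change 1.66, edgeR adjusted p = 0.0244).

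**Figure D5:**
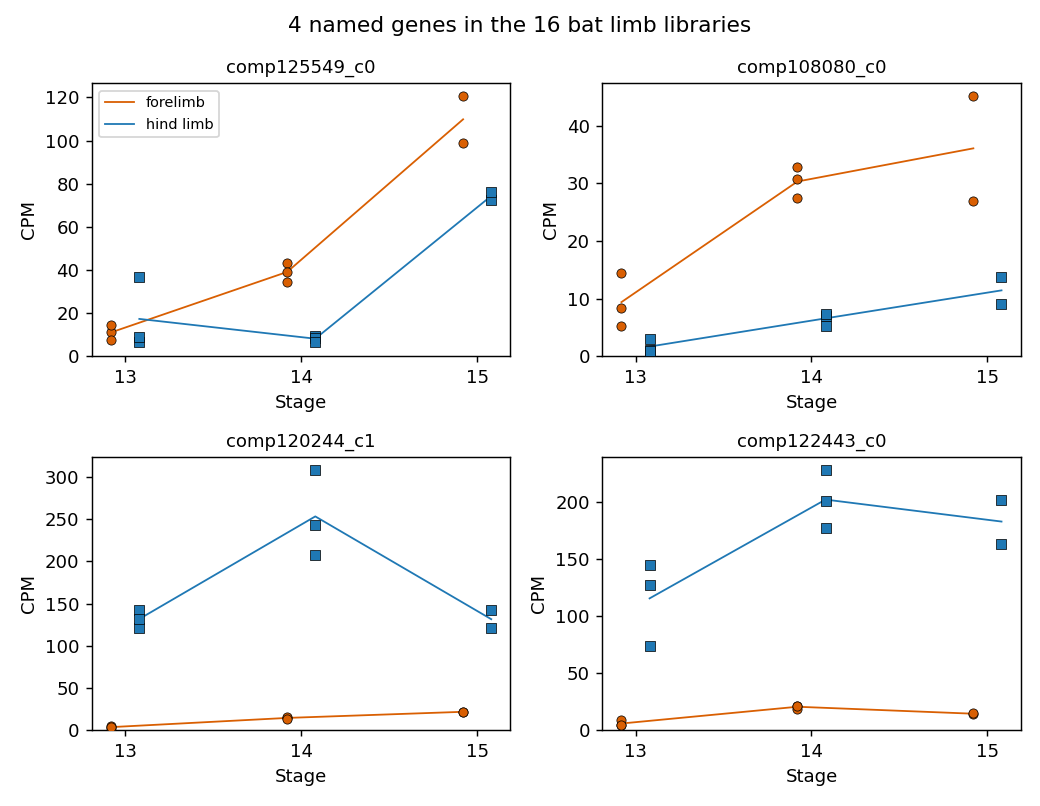
CPM over 16 libraries is shown against stage for 4 genes, with each library as a point (orange circles for forelimb, blue squares for hind limb) and lines through the limb means. The lower panels stay apart at all stages, while comp125549_c0 at upper left overlaps at stage 13, where 1 hind limb library lies at 36.6 CPM.

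The same stage 13 hind limb replicate 1 stood high in 3 other forelimb genes. It held 10.6 CPM of the gene of 2621 bases, where the other hind limb libraries held 0.056 and 0.0838 CPM. The stage 13 forelimb libraries held 0.254, 0.148 and 0 CPM of this gene. In a gene of 2844.8 bases this hind limb library held 152 CPM beside 35.3 and 55.6 CPM. Each of these values lay above the forelimb libraries, at 31.6, 25.4 and 29.6 CPM. In one of 1968 bases the same library held 24.4 CPM beside 4.53 and 3.65 CPM. There the forelimb libraries held 3.52, 3.97 and 2.70 CPM. The log2 fold changes of the latter 2 genes at stage 13, -1.50 and -1.68, were the lowest of the 16 forelimb genes that could be tested there, and neither passed (edgeR adjusted p = 0.705 and 0.814). The gene of 2621 bases did not reach 10 counts in 3 libraries at stage 13, so it was not tested there. In other forelimb genes hind limb replicate 1 was instead the lowest hind limb library of stage 13. Among them, the gene of 2622.6 bases stood at 1.03 CPM in it, beside 17.1 and 8.97 CPM. A gene of 3514 bases stood at 5.71 CPM, beside 20.1 and 9.09 CPM.

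Among genes whose difference held across stages, the gene of 3459.6 bases was at 72.3, 75.6 and 96.5 CPM in the stage 13 forelimb and 4.86, 6.94 and 2.85 CPM in the hind limb (log2 fold change 4.06, edgeR adjusted p = 0.00333). At stage 15 it was at 129 and 115 CPM against 7.55 and 11.5 CPM (log2 fold change 3.73, edgeR adjusted p = 1.34e-06). It was thus between 3.67 and 4.06 on the log2 scale throughout. For the gene of 981 bases the log2 fold change was -7.66 at stage 13, -6.47 at stage 14 and -6.68 at stage 15.

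In other genes the difference was smaller at stage 15, although the interaction of each gene named here missed the threshold in edgeR. The genes were chosen for their difference at stage 14, which favours smaller values at other stages. Of 16 forelimb genes tested at each stage, 14 had a smaller or reversed difference at stage 15, and 11 at stage 13. Of the 6 hind limb genes, 4 had a smaller difference at stage 15 and 1 at stage 13. The gene of 2326 bases reached 581 and 548 CPM in the stage 15 forelimb and 389 and 435 CPM in the hind limb, a log2 fold change of 0.47 that did not pass (edgeR adjusted p = 0.152). At stage 13 its log2 fold change was 0.78 and did not pass either (edgeR adjusted p = 0.763). The hind limb gene of 1959.1 bases went from 8.92 to 11.6 CPM in the forelimb and 20.7 to 38.8 CPM in the hind limb at stage 13 to 0.783 to 0.906 and 1.12 to 1.63 CPM at stage 15. The gene of 4780.5 bases held 16.5 to 31.9 CPM in the forelimb and 0.546 to 1.85 CPM in the hind limb at stage 13, below its stage 14 levels in both limbs. Its limb difference went from a log2 fold change of 4.39 at stage 13 (edgeR adjusted p = 0.0175) to 1.39 at stage 14 and 0.89 at stage 15 (edgeR adjusted p = 0.0983).

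Across the 17 forelimb genes, the forelimb mean was higher at stage 14 than at stage 13 in 15, by more than 2-fold in 11. Over all 14829 genes the shares were 50.9% and 5.25%. From stage 14 to 15 the hind limb mean was higher in 14, by more than 2-fold in 10, beside 48.1% and 5.81% of all genes. The genes were chosen for a high forelimb and a low hind limb level at stage 14, which favours both steps, so the counts are a description, and they compare means of consecutive stages that share the stage 14 libraries.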

How the data were processed

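Bat embryo limbs were sequenced by RNA-seq. By the paper's methods, the authors trimmed the reads, assembled all bat libraries together with Trinity and kept sequences matching SwissProt. They quantified these with RSEM, which uses bowtie. The paper describes bat forelimbs only. Software versions and strand setting are not given in the sources used here. The deposited expected counts are RSEM estimates of reads per gene, not normalized. The deposited FPKM values are RSEM's, which the authors' run divided by effective length and by mapped fragments. The deposited length is an isoform-abundance-weighted mean. Close gene copies can share reads in such an assembly.

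Expected counts were rounded. Genes with a count of at least 10 in 3 or more of the 6 libraries were scaled with TMM and tested with edgeR 4.0.16 (R 4.3.3; robust quasi-likelihood; forelimb minus hind limb), using only the 6 libraries. Adjustment was by Benjamini-Hochberg over all tested genes, with a threshold of 0.05. No pair of replicates of the same limb was a copy (chi-square per degree of freedom at least 22.7). Across limbs the lowest value was 20.3, in forelimb replicate 2 with hind limb replicate 2. Stages 13 and 15 were fitted separately, and the interaction in a fit over both stages. Named genes were at most 2 per direction, those with the smallest p among the genes that passed without overlap; genes given by length were chosen after their values were seen. The members and lists were chosen with earlier results of these data known. The test was checked on simulated counts. Alternatives were DESeq2 1.42.0, limma-voom (limma 3.58.1), RLE factors, other filters, matched depth, genes of at least 1000 bases, all 16 libraries in 1 fit, a replicate block and each library left out. Removing both libraries numbered 2, keeping only the libraries labelled by stage number, each stage 13 library left out, and the alternatives for the stage 13 and 15 values, were decided after seeing the data.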

Additional observations from a re-analysis of the deposited data

How the results depend on the processing

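The count of 23 genes (17 higher in the forelimb, 6 in the hind limb) changed most with the tool and with single libraries. DESeq2 gave 176 (138 and 38), and no filter on low counts gave 35 (28 and 7). Leaving out 1 library gave 8 to 43, the lowest without forelimb replicate 2 and the highest without hind limb replicate 3. Without both libraries numbered 2 the count was 3 (0 and 3), of which 2 were among the 23. With only the libraries labelled by stage number it was 4 (1 and 3). All 16 libraries in 1 fit gave 34 (20 and 14), sharing 15 genes. RLE factors gave 23, limma-voom 27, a count of at least 10 in all 6 libraries 21, matched depth 22 and genes of 1000 bases or more 23. The cause of these shifts was not tested.

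The labels do not say whether the replicate numbers pair the samples, and the main fit used no block. Deviations from the limb means of same-numbered libraries correlated at -0.0929, 0.653 and 0.0571 for numbers 1, 2 and 3. Whether the libraries numbered 2 are a pair was not tested. The fit with a replicate block gave 23 genes (16 and 7), of which 18 were shared. Under the block, the interaction with stage gave 5 genes between stages 14 and 13 and 2 between stages 14 and 15.

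Without the block these interactions gave 0 and 0. DESeq2 gave 88 and 58. Leaving out 1 library gave 0 to 1 between stages 14 and 13 (1 without hind limb replicate 3, and 1 without stage 13 forelimb replicate 3) and 0 to 26 between stages 14 and 15 (26 without hind limb replicate 3). The difference of the library correlation within and between limbs was -0.000725 without forelimb replicate 1, against 0.00205 with all, and ran up to 0.00498. Of the 23 genes, 6 passed at stage 13, 10 by DESeq2, 10 without stage 13 forelimb replicate 3, and 4 to 10 with 1 library left out. At stage 15 the number stayed between 6 and 12 under all 7 alternatives.

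The genes comp120244_c1 and comp122443_c0 passed in 18 of 18 alternatives. In comp125549_c0 the call was lost with all 16 libraries in 1 fit (adjusted p = 0.0718, edgeR) without both libraries numbered 2 and with only the libraries labelled by stage number. Direction was kept by each of the 23 genes in every alternative in which it was tested, and the 4 named genes were tested in all 18. Precision was lowest in weakly expressed genes: 6.18% of genes under 1 CPM had a 95% interval within 2-fold of no difference, against 98.1% at 100 CPM or more.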
